A study of Mus musculus with 12 samples.

Results

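Inhibins, activins and follistatin form a local regulatory system of the ovarian follicle, and 10 of its genes were followed here in mouse granulosa cells. They were the subunit genes Inha, Inhba and Inhbb, the related hormone gene Amh, the binding protein genes Fst and Fstl3, the co-receptor gene Tgfbr3 and the activin receptor genes Acvr2a, Acvr2b and Acvr1b. Members were chosen by gene symbol, from probe sets (groups of short array probes) annotated to exactly 1 gene. All 10 were found among the 18193 genes measured, and each was read from the brightest such probe set, by its mean over all 12 arrays.

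An inhibin is a dimer of the alpha subunit with a beta subunit, whereas an activin is a dimer of beta subunits alone, so the beta subunits are shared between hormones that oppose each other. Activins signal through type II receptors (Acvr2a, Acvr2b) and the type I receptor Acvr1b to SMAD proteins. Inhibin made by granulosa cells occupies the type II receptors with the co-receptor betaglycan (Tgfbr3) and lowers pituitary secretion of follicle-stimulating hormone, while follistatin (Fst) and the related Fstl3 bind activin and block it.

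The study crossed genotype with hormone treatment in 4 groups of 3 arrays. The bERKO hCG and WT hCG groups came from mice given pregnant mare serum gonadotropin (PMSG) for 48 h and then human chorionic gonadotropin (hCG), with collection 4 h after hCG. The bERKO PMSG and WT PMSG groups were collected 48 h after PMSG and received no hCG. bERKO mice lack estrogen receptor beta, encoded by Esr2, and WT mice are wild type; neither the kind of Esr2 allele nor the strain is stated by the labels. All groups shared the PMSG treatment and the age of 3 weeks. In each, granulosa cells of antral follicles, which the design text calls preovulatory, were cut out by laser under the microscope, and 25 ng of total RNA was amplified before labelling. The labels call the arrays biological replicates, but do not say how many animals each array stands for, so p-values measure the spread between these arrays, which may be partly technical.

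The promoters of the beta subunit genes are shown because Inhbb changed and Inhba did not pass any test below. Each runs from 250 bases before to 50 bases after an annotated start, 5′ to 3′ on the gene's strand, as given by RefSeq on build GRCm38.p6. The Inhbb stretch lies on the minus strand at chr1:119422199-119422498 and that of Inhba on the plus strand at chr13:16011601-16011900. The Inhba stretch lies inside the gene, which begins at chr13:16004256. Those of Inha and Acvr2b also begin inside their genes, so the outermost 5′ ends of these genes were not searched. Capitals mark the matches to the motifs named below, of which the Inhba stretch held 0.
Inhbb: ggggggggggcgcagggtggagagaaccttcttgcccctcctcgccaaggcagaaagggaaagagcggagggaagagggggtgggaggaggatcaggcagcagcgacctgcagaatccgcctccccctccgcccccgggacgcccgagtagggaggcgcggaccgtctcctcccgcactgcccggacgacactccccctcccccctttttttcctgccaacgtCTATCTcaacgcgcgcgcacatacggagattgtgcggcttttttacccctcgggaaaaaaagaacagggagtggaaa
Inhba: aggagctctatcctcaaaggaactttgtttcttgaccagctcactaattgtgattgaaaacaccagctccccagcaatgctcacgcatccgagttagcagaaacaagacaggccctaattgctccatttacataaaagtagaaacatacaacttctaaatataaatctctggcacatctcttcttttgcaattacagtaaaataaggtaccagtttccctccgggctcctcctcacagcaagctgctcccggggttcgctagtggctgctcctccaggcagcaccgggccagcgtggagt
The GATA site was searched as AGATAA or TGATAA or AGATAG or TGATAG on both strands. Its only match among the 7 of 10 members with a promoter sequence was in Inhbb, on the opposite strand from base -27. Fst, Tgfbr3 and Amh had no promoter sequence and were not searched. Such a match occurred in 29.8% of all 32841 promoters in the table. The cAMP response element TGACGTCA (1.79% of promoters), its core TGACG (20.8%), the NR5A site AAGGTCA (4.72%) and the full palindromic estrogen response element (0.07%) had no match in the searched stretches of the 7 members. The SMAD box CAGAC (49.6%) matched in Inha, Fstl3, Acvr2a and Acvr2b.

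Arrays and cells were checked before the genes were read. Every signal below is on the scale log2(intensity + 16). Esr2 (probe set 1426103_a_at) ran from 8.13 to 8.53 in bERKO hCG cells, against 8.68 to 9.52 in WT hCG cells, and from 8.13 to 8.64 in bERKO PMSG cells, against 9.01 to 10.33 in WT PMSG cells. The genotypes did not overlap under either treatment, but no Esr2 change passed (limma adjusted p 0.397 after hCG and 0.307 after PMSG), and the labels do not say whether these probes lie in the deleted part. Replicates correlated at 0.91 to 0.97 over genes. For Gapdh, the signal of the 3′ over the 5′ control probes, a ratio that climbs with RNA degradation, reached 32.2 in WT hCG replicate 1 and 23.7 in bERKO PMSG replicate 3; elsewhere it was 4.72 to 11.2. Ovulatory genes (7 of 8 measured) averaged 7.57 on WT hCG replicate 1, against 12.1 and 12.6 on the other WT hCG arrays and 13.3 to 13.6 on the bERKO hCG arrays. Granulosa markers (7 of 8 measured) averaged 12.1 to 12.2 on bERKO hCG, 12.8 to 13.004 on WT hCG, 11.8 to 12.8 on bERKO PMSG and 12.98 to 13.1 on WT PMSG arrays. These averages include Cyp11a1, with group means of 13.7, 10.9, 7.98 and 11.7 in that order, a wider spread than any other marker of the list. Each list mean below is an average of log2 signals over the measured genes of a list. In samples of this kind, fewer cells of a type and less RNA per cell cannot be told apart.

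The inhibin alpha subunit gene Inha (1422728_at) was bright on all 12 arrays and passed no test. Its signals were 14.25, 14.17 and 14.44 in bERKO hCG cells, 14.08, 14.24 and 14.45 in WT hCG cells, 14.12, 14.18 and 13.65 in bERKO PMSG cells, and 14.47, 14.26 and 14.25 in WT PMSG cells. After hCG the genotypes overlapped, with a bERKO minus WT difference of 0.03 (95% confidence interval -0.50 to 0.57). After PMSG all 3 bERKO arrays were below all 3 WT arrays, by 0.34 on average (SE 0.24, limma adjusted p = 0.721). The lowest array there was bERKO PMSG replicate 3, and the difference was -0.17 without it. With each array centred on its median in place of quantile normalization, that difference had the other sign, at 0.21.

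Inhba (1422053_at), the gene of the beta-A subunit found in inhibin A and activin A, also passed no test. Its signals were 14.78, 14.77 and 14.87 in bERKO hCG cells, 14.66, 14.78 and 14.95 in WT hCG cells, 14.59, 14.65 and 14.52 in bERKO PMSG cells, and 14.80, 14.78 and 14.70 in WT PMSG cells. The bERKO PMSG arrays were the lowest and overlapped neither WT PMSG nor bERKO hCG arrays, yet these differences were small. The bERKO minus WT difference was 0.01 after hCG (interval -0.46 to 0.48) and -0.18 after PMSG (SE 0.21, limma adjusted p = 0.847), and the PMSG value was 0.17 on the deposited values and 0.42 with median centring. The hCG minus PMSG difference was 0.22 in bERKO cells (limma adjusted p = 0.521) and 0.04 in WT cells (limma adjusted p = 0.96). The other Inhba probe set, 1458291_at, was near the floor, with a mean of 5.81 over all arrays. It passed no test and was too dim to check the bright one.

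Inhbb (1426858_at), the gene of the beta-B subunit found in inhibin B and activin B, fell after hCG in bERKO cells. Its signals were 11.38, 11.35 and 12.09 in bERKO hCG cells, 14.29, 14.10 and 14.65 in WT hCG cells, 14.39, 14.57 and 14.08 in bERKO PMSG cells, and 14.77, 14.57 and 14.60 in WT PMSG cells. The 3 bERKO hCG arrays lay below the other 9 arrays, and the other 3 groups overlapped with one another. As deposited, before quantile normalization, the intensities were 2634, 2613 and 4424 in bERKO hCG cells, against 21710, 14865 and 20379 in WT hCG cells. Without hCG, the intensities were 27043, 24113 and 21368 in bERKO PMSG cells and 25627, 23610 and 21379 in WT PMSG cells, so the deposited ranges overlapped there.

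hCG lowered Inhbb 6.69-fold in bERKO cells (log2 change -2.74, SE 0.28, limma adjusted p = 0.000213), whereas in WT cells the change was -0.30 (SE 0.28, limma adjusted p = 0.666, interval -0.92 to 0.32). Between genotypes, Inhbb was 6.69-fold lower in bERKO than in WT cells after hCG (log2 change -2.74, SE 0.28, limma adjusted p = 0.0015), and after PMSG the difference was -0.30 (limma adjusted p = 0.799). The difference between the hCG responses was -2.44 (SE 0.40, limma adjusted p = 0.0157), and Inhbb was the only member for which that difference passed. It was -2.61 (limma adjusted p = 0.0417) without the 2 arrays of high Gapdh ratio. The call was lost without bERKO hCG replicate 1 (-2.33, limma adjusted p = 0.0522) or replicate 2 (-2.32, limma adjusted p = 0.0544). The WT response of Inhbb was -0.27 without WT hCG replicate 1, the array with the low ovulatory genes.

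A dimmer Inhbb probe set, 1426859_at, gave 7.63, 7.85 and 9.07 in bERKO hCG cells, 10.46, 11.07 and 12.26 in WT hCG cells, 11.46, 11.28 and 9.11 in bERKO PMSG cells, and 11.80, 11.04 and 11.42 in WT PMSG cells. On these normalized signals every bERKO hCG array was below the other 9, although bERKO hCG replicate 3 and bERKO PMSG replicate 3 nearly met. As deposited, those arrays had intensities of 491.5 and 470.1, so the bERKO hCG and bERKO PMSG ranges overlapped there. In a limma fit over all 34945 one-gene probe sets it fell by 3.08 in bERKO against WT cells after hCG (adjusted p = 0.0343) and by 2.43 with hCG in bERKO cells (adjusted p = 0.0239). Its difference of responses was -2.28 and did not pass (limma adjusted p = 0.283).

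**Figure D1:**
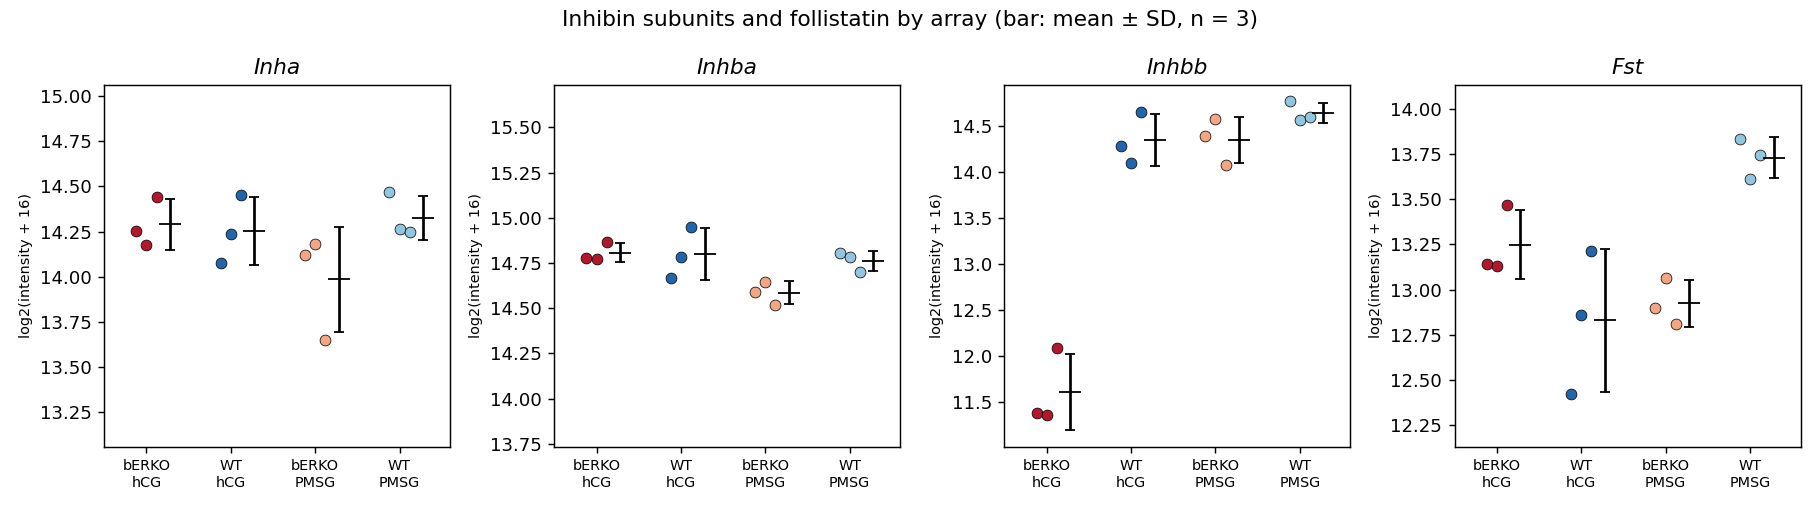
Signals of Inha, Inhba, Inhbb and Fst, as log2(intensity + 16) on the vertical axis, in bERKO hCG, WT hCG, bERKO PMSG and WT PMSG cells. Points are arrays, bars are the mean and SD of 3 arrays, and axis ranges differ between panels; the bERKO hCG points of Inhbb (11.35 to 12.09) lie under all others, whereas those of Inha and Inhba lie among them.

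Amh (1 probe set), the gene of anti-Müllerian hormone, which granulosa cells of small growing follicles make, was near the floor. Its signals were 6.05, 4.52 and 6.12 in bERKO hCG cells, 4.22, 4.64 and 4.52 in WT hCG cells, 6.11, 4.33 and 5.82 in bERKO PMSG cells, and 4.72, 4.51 and 4.65 in WT PMSG cells, where a signal of 4 is an intensity of 0. Replicates 1 and 3 of each bERKO group were above all WT arrays and replicate 2 of each was not. The bERKO minus WT difference was 1.11 after hCG (SE 0.50, limma adjusted p = 0.277) and 0.79 after PMSG (SE 0.50, limma adjusted p = 0.673), and neither passed.

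Follistatin, Fst (1434458_at), gave 13.14, 13.13 and 13.47 in bERKO hCG cells, 12.42, 12.86 and 13.21 in WT hCG cells, 12.90, 13.06 and 12.81 in bERKO PMSG cells, and 13.83, 13.61 and 13.75 in WT PMSG cells. WT PMSG arrays were the highest and overlapped no other group, and within each genotype the hCG and PMSG arrays did not overlap. The hCG minus PMSG difference had opposite signs, 0.32 in bERKO cells (SE 0.26, limma adjusted p = 0.431) and -0.90 in WT cells (SE 0.26, limma adjusted p = 0.1). The difference between them was 1.22 (SE 0.37, limma adjusted p = 0.134), so neither response nor their difference passed. With median centring the bERKO difference was -0.13 and the WT difference -1.24, and the WT difference then passed (limma adjusted p = 0.0383).

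As deposited, Fst had 9360, 9010 and 11476 in bERKO hCG cells, against 5369, 6631 and 7905 in WT hCG cells, without overlap, whereas the normalized signals overlapped. On normalized signals the genotype difference of Fst was -0.81 after PMSG and 0.42 after hCG (SE 0.26 each, limma adjusted p 0.363 and 0.461). The value after hCG was 0.21 without WT hCG replicate 1 and 0.74 with median centring. In a dimmer probe set, 1421365_at, the signals were 12.46, 12.60 and 13.22 in bERKO hCG cells and 11.78, 11.69 and 11.67 in bERKO PMSG cells, with no overlap. That probe set rose by 1.05 with hCG in bERKO cells (SE 0.31, limma adjusted p = 0.0364 over all one-gene probe sets), and its WT difference was -0.32 (limma adjusted p = 0.696). Its difference of responses, 1.37, did not pass (limma adjusted p = 0.177).

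Fstl3, whose product binds activin much as follistatin does, was dim and variable. Its signals were 4.57, 5.87 and 4.84 in bERKO hCG cells, 6.37, 6.60 and 5.77 in WT hCG cells, 7.43, 5.41 and 5.79 in bERKO PMSG cells, and 4.73, 6.35 and 4.99 in WT PMSG cells. All of these groups overlapped in the comparisons made. The bERKO minus WT difference was -1.16 after hCG and 0.85 after PMSG (SE 0.58 each, limma adjusted p 0.338 and 0.703), with the value after PMSG at 0.24 without bERKO PMSG replicate 1, and the difference of the hCG responses was -2.004 (SE 0.82, limma adjusted p = 0.272).

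Tgfbr3 (1433795_at), the gene of the inhibin co-receptor betaglycan, fell beside Inhbb. Its signals were 8.36, 8.49 and 8.66 in bERKO hCG cells, 10.48, 9.89 and 9.80 in WT hCG cells, 10.31, 9.80 and 10.26 in bERKO PMSG cells, and 9.90, 10.07 and 10.38 in WT PMSG cells. The bERKO hCG arrays lay below the other 9 arrays, which overlapped with one another. Deposited intensities were 300.5, 327.7 and 368.5 in bERKO hCG cells, against 1424, 967.7 and 924.3 in WT hCG cells.

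hCG lowered Tgfbr3 3.07-fold in bERKO cells (log2 change -1.62, SE 0.28, limma adjusted p = 0.00231), and the WT change was -0.06 (interval -0.67 to 0.54, limma adjusted p = 0.947). The difference of responses, -1.56 (SE 0.39), missed the threshold (limma adjusted p = 0.0782), so a different response of Tgfbr3 in the genotypes was not shown. The bERKO minus WT difference after hCG was -1.55 (SE 0.28, limma adjusted p = 0.0156). That call was lost without bERKO hCG replicate 1 (limma adjusted p = 0.064), bERKO hCG replicate 2 (0.0578) or WT hCG replicate 1 (0.0566), at values of -1.48, -1.54 and -1.34.

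The other Tgfbr3 probe set, 1425620_at, had 8.51, 8.59 and 8.26 in bERKO hCG cells, 10.22, 10.04 and 9.79 in WT hCG cells, 8.81, 9.36 and 8.997 in bERKO PMSG cells, and 8.88, 9.74 and 9.61 in WT PMSG cells. Its bERKO hCG arrays were again below all others. It fell by 1.56 in bERKO against WT cells after hCG (limma adjusted p = 0.0247), but its hCG difference in bERKO cells was -0.60 and did not pass (limma adjusted p = 0.2), so the probe sets disagreed on the size of the fall from the PMSG level.

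The activin receptor genes passed no test in any comparison. Acvr2a, a type II receptor gene, had 11.09, 10.82 and 10.38 in bERKO hCG cells, 10.95, 10.82 and 10.73 in WT hCG cells, and 10.75 to 10.98 over the PMSG arrays of both genotypes. Its 4 groups overlapped, and its differences lay between -0.09 and 0.04, each with an SE of 0.25, and its difference of responses was -0.11. A dimmer Acvr2a probe set, 1451004_at, had 10.71, 10.61 and 10.79 in bERKO hCG cells, against 10.51, 10.14 and 8.33 in bERKO PMSG cells, without overlap and with bERKO PMSG replicate 3 far below the rest. Its hCG difference in bERKO cells was 1.04 (SE 0.51, limma adjusted p = 0.191), its genotype difference after PMSG -0.52 and its difference of responses 0.84, so the Acvr2a probe sets disagreed, without a test passed. Acvr2b, the other type II receptor gene, ran from 6.70 to 7.70 over the 12 arrays with every group overlapping. Its used probe set gave a WT response of 0.02, against 2.07 and 1.74 in its other probe sets (limma adjusted p 0.297 and 0.199), so the level of Acvr2b in WT cells after hCG was not settled by these probe sets.

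Acvr1b, the type I receptor gene, had 7.34, 7.74 and 6.22 in bERKO hCG cells, 8.76, 7.57 and 7.58 in WT hCG cells, 7.72, 7.04 and 6.54 in bERKO PMSG cells, and 7.29, 6.47 and 6.95 in WT PMSG cells. WT hCG arrays were above all WT PMSG arrays, by 1.06 on average (SE 0.48, limma adjusted p = 0.282), and WT hCG replicate 1, the array with the highest Gapdh ratio, was the highest of all. Without that array the difference was 0.67. A dimmer Acvr1b probe set, 1422098_at, passed no test and gave a WT difference of 0.97. Its hCG difference in bERKO cells was 0.58, against 0.002 in the used probe set. Between genotypes after hCG it gave -0.15, against -0.87 in the used probe set.

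**Figure D2:**
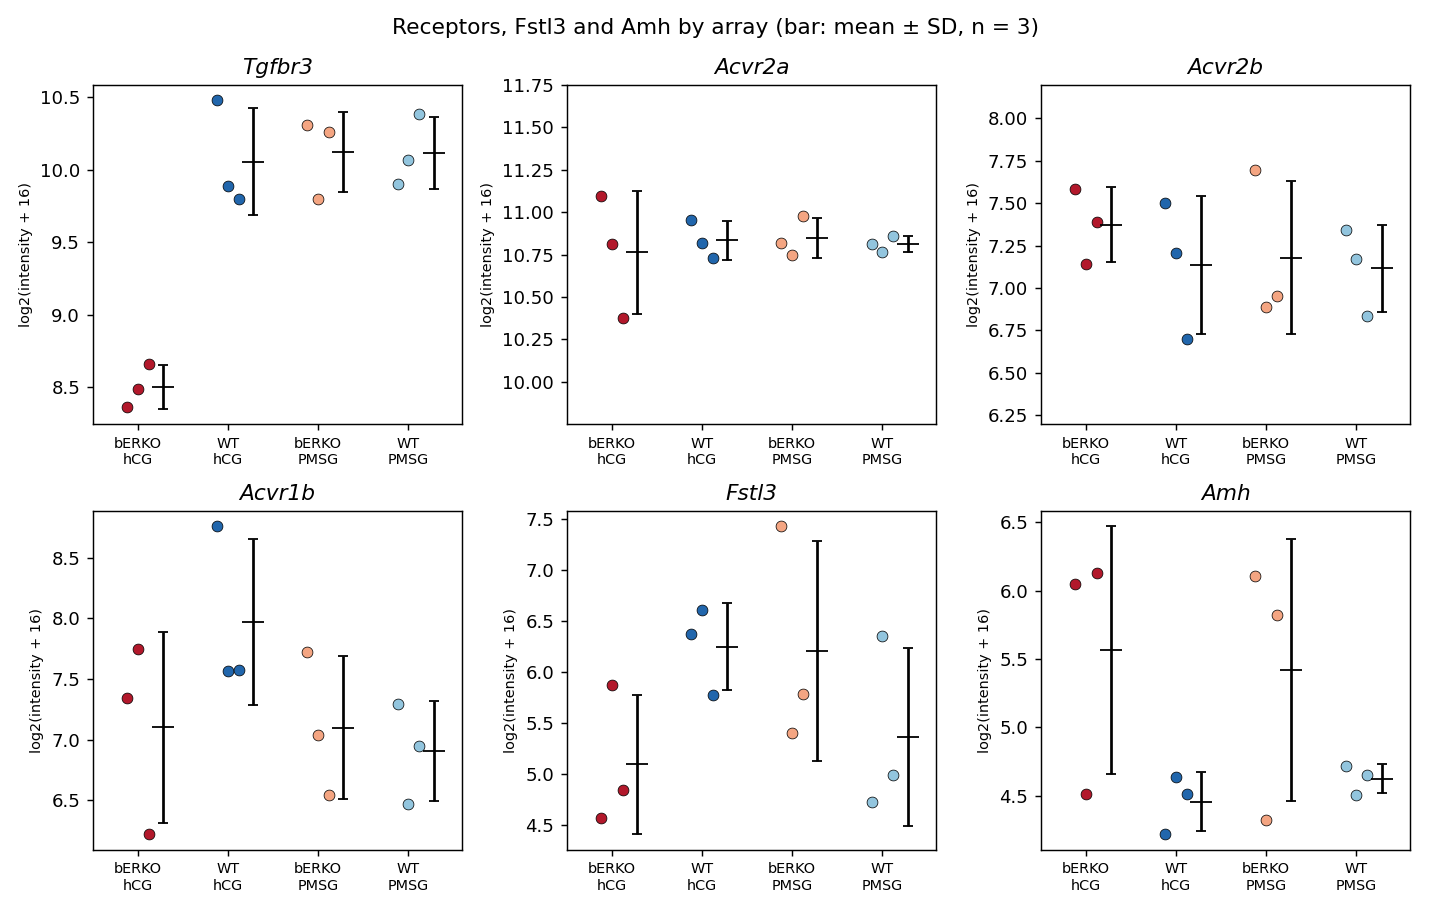
Signals of Tgfbr3, Acvr2a, Acvr2b, Acvr1b, Fstl3 and Amh, as log2(intensity + 16) on the vertical axis, by array in bERKO hCG, WT hCG, bERKO PMSG and WT PMSG cells, with the mean and SD of 3 arrays as bars and an axis range of its own per panel. Tgfbr3 lies at 8.36 to 8.66 in bERKO hCG cells and at 9.80 or above elsewhere, and the other genes overlap between most groups.

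Over the 10 members, 2 fell and 0 rose in bERKO against WT cells after hCG, where 1.54% of the 18193 genes were called lower and 3.09% in either direction. With hCG against PMSG in bERKO cells the same 2 fell, Inhbb and Tgfbr3, where 11.9% of genes were called lower and 18.9% in either direction. In the difference of the responses 1 member, Inhbb, was called, against 0.638% of genes called lower and 1.31% either way. With hCG against PMSG in WT cells 0 members passed in limma, against 2.08% of genes. Fst and Acvr1b had an unadjusted limma p under 0.05, as did 3115 of the 18193 genes. In bERKO against WT cells after PMSG 0 members passed, against 0.011% of genes. Of the members, Fst alone was under 0.05 before adjustment, as were 1733 of the 18193 genes.

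Groups that did not overlap were 2 of 10 members for bERKO against WT after hCG and 3 of 10 after PMSG, against 24.5% and 14.7% of all genes. For hCG against PMSG they were 4 of 10 in bERKO cells and 2 of 10 in WT cells, against 36.2% and 24% of all genes. The 3 after PMSG (Inha, Inhba and Fst) were all lower in bERKO cells, where 6.58% of genes were separated in that direction. The median change of the members was -0.03 after hCG and 0.02 after PMSG between genotypes, against -0.06 and 0.04 over all genes, and 0.07 and -0.02 for hCG in bERKO and WT cells, against -0.19 and -0.08. The comparisons between genotypes and those between treatments share arrays: the bERKO hCG arrays enter both calls of Inhbb and of Tgfbr3.

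**Figure D3:**
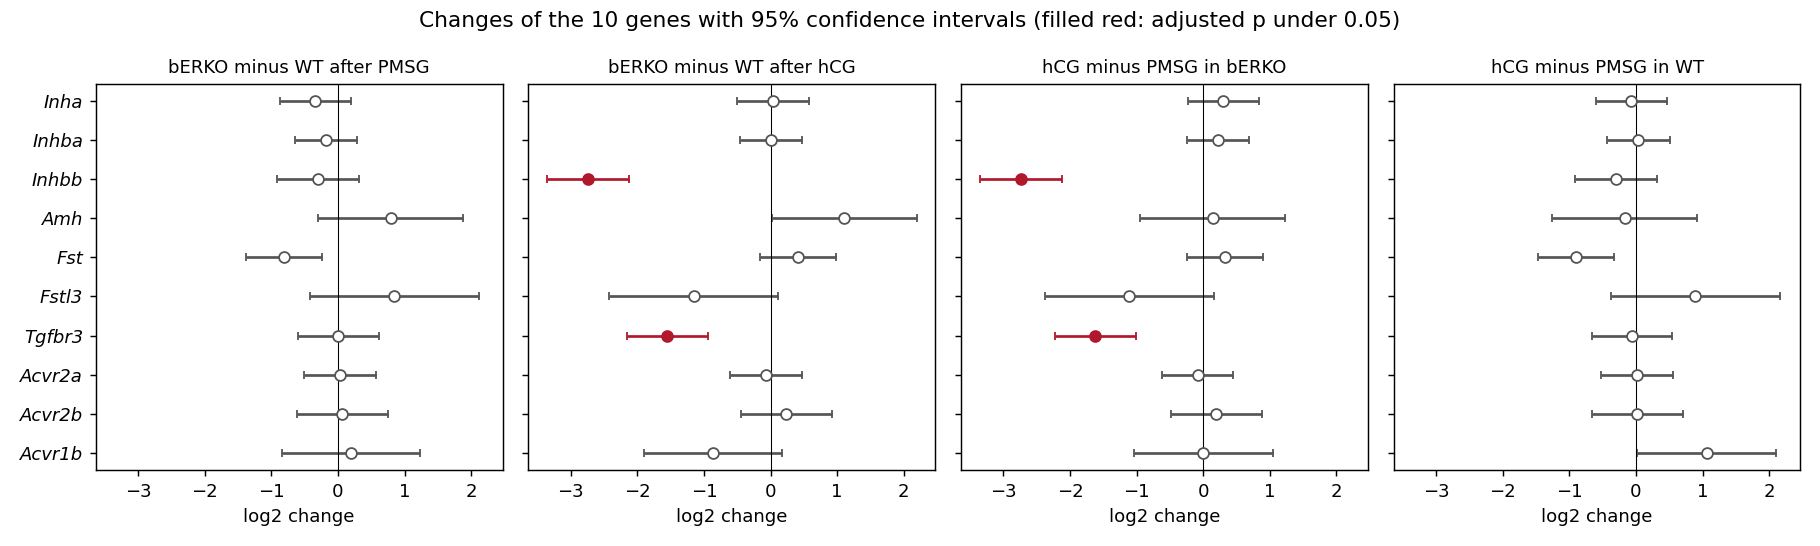
Changes of the 10 genes (log2, horizontal axis) in 4 comparisons with 95% confidence intervals, each from 3 arrays a group; filled red points passed at an adjusted p under 0.05. Inhbb and Tgfbr3 are filled in bERKO minus WT after hCG (-2.74 and -1.55) and in hCG minus PMSG in bERKO cells (-2.74 and -1.62), and 0 genes are filled in the other comparisons.

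**Figure D4:**
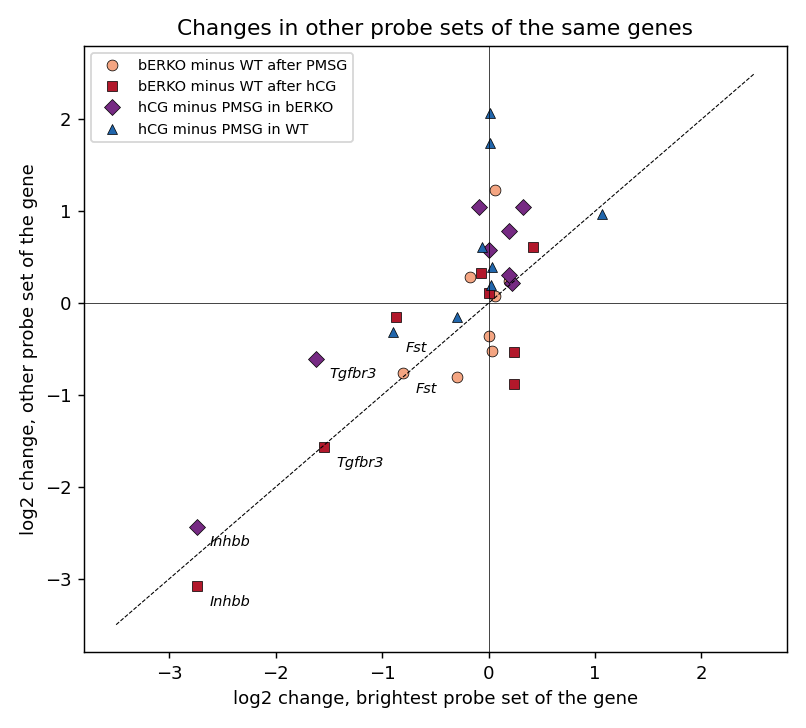
Log2 change in a gene's other probe sets (vertical axis) against that in its brightest probe set (horizontal axis), for the members with several probe sets in 4 comparisons, with the line of equal change dashed. The Inhbb points of the called falls lie near the line at -2.43 and -3.08. The Tgfbr3 point at -1.56 lies near it, whereas that at -0.60 (brightest probe set -1.62) and the Acvr2a point at 1.04 (brightest probe set -0.09) lie above it, and the 2.07 and 1.74 points of Acvr2b in WT cells lie far above it.

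Markers of some other cell types moved with these comparisons. On bERKO hCG arrays, the list mean of endothelial markers was 6.79 to 8.05, against 5.51 to 5.59 on WT hCG arrays, and 4 of 7 rose. These were Kdr (group means 8.35 in bERKO hCG and 5.79 in WT hCG cells), Emcn (8.03 and 5.47), Cdh5 (8.47 and 5.43) and Flt1 (7.83 and 6.28), while Tie1 was at 5.42 and 5.25. The stroma and smooth muscle list averaged 7.88 to 9.41, against 6.10 to 7.37, and the leukocyte list 5.96 to 7.39, against 5.16 to 5.55, with 0 of 7 passing in each but all 7 of each higher in bERKO hCG cells. Among them, Col3a1 averaged 11.59 and 8.08, C1qb 8.84 and 5.83, Lyz2 8.74 and 6.44, and Adgre1 5.19 and 4.94, in bERKO hCG and WT hCG cells. In the same comparison 0 of 6 theca and interstitium, 0 of 5 surface epithelium and 0 of 2 erythrocyte markers passed. Of these, 3, 1 and 2 had a higher mean in bERKO hCG cells.

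With hCG against PMSG in bERKO cells, the endothelial list mean was 6.79 to 8.05, against 4.84 to 5.59, and 5 of 7 rose. Stroma and smooth muscle markers averaged 7.88 to 9.41, against 6.36 to 8.06 (1 of 7 rose), and leukocyte markers 5.96 to 7.39, against 5.09 to 6.26 (2 of 7 rose). Oocyte markers averaged 7.07 to 8.25 in bERKO hCG cells, against 9.38 to 10.6 in bERKO PMSG cells, and 5 of 9 fell. Granulosa markers gave 4 falls and 1 rise among 7, and 6 of 7 had a lower mean in bERKO hCG cells. The rise was that of Cyp11a1 (log2 change 5.76, SE 1.04, limma adjusted p = 0.00307). Theca and interstitium markers gave 1 rise and 1 fall among 6, and 0 surface epithelium and erythrocyte markers passed. In the difference of responses, 2 of 7 endothelial markers passed, both with a positive value.

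Of the granulosa markers, 2 of 7 fell and 6 of 7 had a lower mean in bERKO hCG than in WT hCG cells. Inha and Inhba, which ranked 72 and 15 by mean signal among the 18193 genes, overlapped between the genotypes on the same arrays. The part of the other cells in the falls of Inhbb and Tgfbr3 was not tested. After PMSG, all 9 oocyte markers had a higher mean in bERKO cells (list mean 9.38 to 10.6, against 5.95 to 9.08 in WT cells) with 0 passing, and their part in the lower Fst and Inha signals was not tested.

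Around the 10 genes, 69 of 70 listed genes of the wider pathway were measured: other receptors, ligands and binding proteins, SMADs with their cofactors, prohormone convertases, and factors known to act on inhibin subunit promoters. In bERKO against WT cells after hCG, 2 rose and 4 fell, where 1.55% of all genes rose and 1.54% fell. Of the 14 promoter factors, Gata4, a zinc finger factor of granulosa cells, fell with signals of 8.91, 8.45 and 9.76 in bERKO hCG cells, against 12.15, 11.39 and 11.30 in WT hCG cells (log2 change -2.58, SE 0.35, limma adjusted p = 0.00642). Foxl2, a forkhead factor that maintains granulosa identity, fell by 1.71 (SE 0.37, limma adjusted p = 0.0343). Fosb, an AP-1 component, rose by 2.17 (SE 0.50, limma adjusted p = 0.0415). It was dim, with 7.01, 7.77 and 8.50 in bERKO hCG cells, against 4.62, 6.36 and 5.79 in WT hCG cells.

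Outside the promoter factors, Ltbp1, which binds latent TGF-beta, rose by 2.07 (SE 0.41, limma adjusted p = 0.0227). Wfikkn2, whose product binds GDF11 and myostatin, fell by 1.73 (limma adjusted p = 0.0415). It was dim too, at 4.41 to 5.68 in bERKO hCG cells, against 6.44 to 7.03 in WT hCG cells. The BMP type I receptor gene Bmpr1b fell by 1.40 (limma adjusted p = 0.0422). Fshr, the receptor for follicle-stimulating hormone, whose signalling raises inhibin output, had 8.92, 8.96 and 8.995 in bERKO hCG cells, against 12.32, 10.75 and 11.69 in WT hCG cells (log2 change -2.62, SE 0.50, limma adjusted p = 0.0207). For both Gata4 and Fshr the genotypes did not overlap. Of the other factors named in every comparison, Nr5a1 (steroidogenic factor 1) differed by -0.55, Nr5a2 (liver receptor homolog 1) by -0.52 and Crem, a cAMP-responsive modulator, by 2.30, and none of these passed (limma adjusted p 0.469, 0.246 and 0.109). The value of Crem was 1.19 without WT hCG replicate 1. Gata4 kept its call after each of the 12 arrays was left out in turn. Without WT hCG replicate 1 the other 6 called genes named here were not called (limma adjusted p 0.0648 to 0.14), and over the 12 omissions the call was lost in 4 for Ltbp1 and Fshr, 7 for Foxl2, 9 for Wfikkn2, and 10 for Fosb and Bmpr1b.

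With hCG in bERKO cells, 16 of the 69 genes rose and 9 fell, against 7.05% and 11.9% of all genes. The 4 with the smallest p were the estrogen receptor alpha gene Esr1 (-3.45, SE 0.32, limma adjusted p = 0.000155), Bmpr1b (-2.30, limma adjusted p = 0.000843), the convertase gene Pcsk5 (2.70, limma adjusted p = 0.00128) and Fosb (3.26, limma adjusted p = 0.00132). Fosb was near the floor in bERKO PMSG cells, at 4.17 to 5.12. Crem rose by 3.63 (SE 0.71, limma adjusted p = 0.00488), Gata4 fell by 1.57 (SE 0.35, limma adjusted p = 0.01) and Fshr fell by 1.84 (SE 0.50, limma adjusted p = 0.025). By list, the calls were 2 higher and 2 lower of 14 receptors, 4 and 4 of 18 ligands and binding proteins, 4 and 0 of 19 SMADs and cofactors, 1 and 0 of 4 convertases, and 5 and 3 of 14 promoter factors. Among the ligands called lower was Gdf9 (-1.97, limma adjusted p = 0.0476), which is also one of the oocyte markers above. Nr5a1 and Nr5a2 differed by -0.91 and -0.31 without passing (limma adjusted p 0.0949 and 0.365), and Esr2 by 0.02 (limma adjusted p = 0.985). The Fshr call was lost in 5 of 12 omissions of 1 array (limma adjusted p up to 0.0826): without any one of the bERKO hCG arrays, or without bERKO PMSG replicate 1 or 2.

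With hCG in WT cells, 3 of the 69 genes rose and 0 fell, against 0.731% and 1.35% of all genes. They were Cebpb, a transcription factor gene induced by luteinizing hormone (1.36, SE 0.28, limma adjusted p = 0.0327), Pmepa1, a feedback inhibitor of TGF-beta signalling (1.62, limma adjusted p = 0.0456), and Pcsk5 (1.80, limma adjusted p = 0.0482). Gata4 differed by 0.70 in WT cells, with the WT hCG arrays above the WT PMSG arrays (limma adjusted p = 0.351), and Fshr by 0.04 (limma adjusted p = 0.983). Crem differed by 1.61, Nr5a1 by -1.21 and Nr5a2 by 0.09, and none passed (limma adjusted p 0.273, 0.0998 and 0.891), nor did Esr2 (-0.57, limma adjusted p = 0.486). Crem had 7.26, 10.90 and 10.27 in WT hCG cells, and without replicate 1, the low array, its WT difference was 2.72 and passed (limma adjusted p = 0.0033). Of the 3 calls, Cebpb was lost in 7, Pcsk5 in 10 and Pmepa1 in 11 of the 12 omissions of 1 array, with limma adjusted p up to 0.125, 0.17 and 0.134.

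The hCG responses of 2 pathway genes differed between genotypes, Ltbp1 (3.25, SE 0.58, limma adjusted p = 0.0237) and Esr1 (-2.55, SE 0.45, limma adjusted p = 0.0236). Ltbp1 had signals of 13.55, 13.60 and 13.004 in bERKO hCG cells, 10.86, 10.66 and 12.44 in WT hCG cells, 11.68, 11.86 and 11.59 in bERKO PMSG cells, and 12.91, 12.94 and 12.85 in WT PMSG cells. hCG arrays of Ltbp1 were therefore above PMSG arrays in bERKO cells and below them in WT cells, where 36.2% and 24% of all genes had groups without overlap. The bERKO difference passed (1.67, limma adjusted p = 0.0147, lost in 2 of 12 omissions of 1 array). The WT difference of Ltbp1 did not pass (-1.58, limma adjusted p = 0.0703). Gata4 missed the threshold (-2.28, SE 0.50, limma adjusted p = 0.0518), as did Fshr (-1.88, limma adjusted p = 0.235) and Crem (2.02, limma adjusted p = 0.371). Omitting WT hCG replicate 1 put Crem at 0.91, and Gata4 passed without bERKO hCG replicate 3 or WT hCG replicate 3. Esr2 (0.58), Nr5a1 (0.31) and Nr5a2 (-0.41) did not pass either (limma adjusted p 0.643, 0.821 and 0.583). The call of Ltbp1 was lost in 8 and that of Esr1 in 7 of the 12 omissions of 1 array, with limma adjusted p up to 0.0654 and 0.0623. After PMSG, 0 of the 69 genes passed between genotypes in limma. There Gata4 differed by -0.30, Fshr by -0.74, Crem by 0.28, Nr5a1 by -0.86 and Nr5a2 by -0.12, with limma adjusted p between 0.467 and 0.937.

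**Figure D5:**
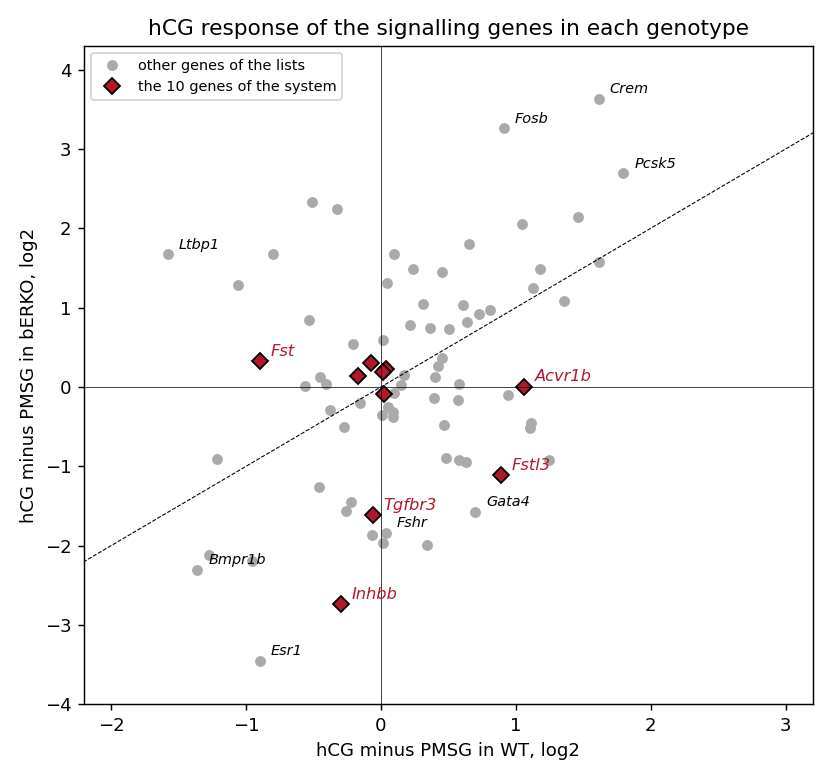
hCG minus PMSG difference (log2) in bERKO cells, vertical axis, against that in WT cells, horizontal axis; red diamonds are the 10 genes of the system, grey points the 69 other genes of the lists with Fshr, and the dashed line marks equal responses. Inhbb (-2.74 and -0.30) and Tgfbr3 (-1.62 and -0.06) lie well below the line, and Ltbp1 (1.67 and -1.58) well above it.

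For each inhibin subunit, the most similar profiles over the 12 arrays were taken by Pearson correlation, as a description without a test. The candidates were the 11068 other genes with a mean signal of at least 6, after predicted and unnamed genes were skipped by symbol. For Inhbb they were Adgrg1 (0.98), Sytl4 (0.97), Dzip3 (0.96) and Dock9 (0.96), over arrays that include the 3 bERKO hCG arrays on which Inhbb was low. Inha was matched most closely by Grem1 (0.95), Srsf9 (0.94), Lrrc74b (0.94) and Prkar2b (0.93). Inhba was matched by Nectin3 (0.95), Jak1 (0.94), Crim1 (0.94) and Dab2 (0.93).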

How the data were processed

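RNA of 12 granulosa cell samples was measured on 12 Affymetrix mouse arrays of 1 colour. The authors deposited 1 linear intensity for each probe set and had scaled the intensities to a 2% trimmed mean of 500.0 on every array, as tested on the values; the labels name no software for this. From 45101 probe sets 64 controls were left out, the other 45037 were quantile normalized as intensities, and log2(intensity + 16) was taken, which understates changes of dim genes. Of these, 34945 named 1 gene, 932 named several, and 9160 were not listed in the annotation table; the brightest one-gene probe set stood for each of 18193 genes.

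Group means were fitted with limma 3.58.1 in R 4.3.3 (statmod 1.5.0 for blocks) over all 12 arrays with 8 residual degrees of freedom before moderation, with no filter on dim genes. Tests were two-sided, with Benjamini-Hochberg adjustment over all genes within each of 5 contrasts, and passed at an adjusted p under 0.05. The fit was tested on simulated data. Precision is limited by the small number of arrays. Plots were made in Python (3.11.15, with matplotlib 3.10.9).

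The members and lists were chosen with earlier results of these data known, so no list is independent evidence. The text names the 10 members, up to 4 passing pathway genes per contrast with the smallest p, 6 genes in every contrast (Fshr, Esr2, Nr5a1, Nr5a2, Gata4, Crem) and the 4 most alike genes of each subunit; other genes were named after their values were seen. Alternatives changed normalization, offset, filter, probe set choice, arrays fitted, array weights and the replicate block, and left out arrays. Replicate numbers were not used as pairs in the main model. Quantile normalization of log2 values was added after seeing the data.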

Additional observations from a re-analysis of the deposited data

Results flagged for a closer look

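The hCG response of Inhbb differed between the genotypes: it was -2.74 in bERKO cells and -0.30 in WT cells (log2), a difference of -2.44 (limma adjusted p = 0.0157), which is the test that singled it out. Over 22 alternative settings it ran from -2.72 to -2.29, and the adjusted p from 0.00638 to 0.0753.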

How the results depend on the processing

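Inhbb kept its sign and its call in bERKO against WT after hCG (-2.98 to -2.43) and with hCG in bERKO cells (-3.30 to -2.59) under all 23 alternatives, and Tgfbr3 with hCG in bERKO cells (-2.02 to -1.11). The number of members called in bERKO against WT after hCG was 2, and 1 with only the arrays of the groups compared, where Tgfbr3 had a limma adjusted p of 0.0547; leaving out 1 array each gave 1 to 2. In the difference of responses it was 1, but 2 with offset 64 or with genes of a mean of at least 6 (Tgfbr3 joined, limma adjusted p 0.0392 and 0.0488), and 0 with the mean of all probe sets (Inhbb 0.0753); leaving out 1 array each gave 0 to 1. With hCG in WT cells it was 0, but 1 with median centring, offset 64 or array weights (Fst, -1.24, -0.89 and -0.81, limma adjusted p 0.0383, 0.0328 and 0.0378). The cause of these changes was not tested, and some of the settings also have fewer genes or arrays.

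The number of all genes called moved more. Over the alternatives other than leaving out 1 array, it ran from 0 to 12 in the genotypes after PMSG (2 in the main model), 219 to 1239 after hCG (562), 31 to 1598 for hCG in WT cells (378), 2600 to 3969 in bERKO cells (3447) and 95 to 454 for the difference (239). Leaving out 1 array gave 0 to 26, 141 to 684, 49 to 580, 2302 to 3848 and 81 to 408. Pathway genes called ran over both kinds from 1 to 13 after hCG (6), 0 to 11 for hCG in WT cells (3), 16 to 29 in bERKO cells (25) and 0 to 5 for the difference (2). The share of called genes that were higher was 50.2% after hCG, 39.1% on the deposited values and 66.5% with median centring; for hCG in WT cells it was 35.2% and 18.1% with median centring, and in bERKO cells 37.2% and 24.3%. Median centring set the median of all genes at 0.24 after PMSG, -0.22 for hCG in WT cells and -0.41 in bERKO cells, against 0.04, -0.08 and -0.19.

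With the replicate block, the members called were 0, 2, 0, 2 and 1, as without it, in the genotypes after PMSG and after hCG, hCG in WT and in bERKO cells, and the difference. All genes called with the block were 409 after hCG, 148 for hCG in WT cells and 129 for the difference. Pathway genes called with the block were 3 after hCG (6 without it; Foxl2, Wfikkn2 and Bmpr1b were lost), 0 for hCG in WT cells (Cebpb, Pmepa1 and Pcsk5 were lost) and 1 for the difference (Ltbp1 was lost). Over 18 pairs of arrays that share a number, deviations correlated at -0.08 to 0.12, and 6 of 12 arrays correlated best with their own number. The labels do not say that the numbers pair the arrays, and with 3 arrays a group these correlations cannot decide it.

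Other member values changed sign, all without passing. On the deposited values the values were, for genotype after PMSG Inhba 0.17, Inhbb 0.036, Tgfbr3 -0.038, Acvr1b -0.038 and Acvr2b -0.19, for hCG in WT Acvr2a -0.0011 and Amh 0.00024, for difference of responses Inhba -0.0053. With median centring the values were, for genotype after PMSG Inha 0.21, Inhba 0.42 and Inhbb 0.29, for genotype after hCG Acvr2a 0.064, for hCG in WT Inhba -0.23, Acvr2a -0.25 and Acvr2b -0.038, for hCG in bERKO Inha -0.24, Inhba -0.34, Fst -0.13 and Acvr1b -0.052, for difference of responses Inhba -0.11. With the mean of all probe sets the values were, for genotype after PMSG Inhba 0.056, Tgfbr3 -0.17 and Acvr2a -0.24, for genotype after hCG Acvr2a 0.13 and Acvr2b -0.39, for hCG in WT Tgfbr3 0.27, for hCG in bERKO Acvr2a 0.48, for difference of responses Acvr2a 0.37 and Acvr2b -0.85. With array weights the values were, for genotype after PMSG Tgfbr3 -0.043, for genotype after hCG Inha -0.033, Inhba -0.029 and Acvr2a 0.037, for hCG in WT Acvr2a -0.0074 and Acvr2b -0.026, for hCG in bERKO Acvr2a 0.028, for difference of responses Acvr2a 0.036. With offset 1 the values were, for hCG in bERKO Acvr1b -0.0096. Without bERKO PMSG replicate 3 and WT hCG replicate 1 together the values were, for genotype after PMSG Tgfbr3 -0.061 and Acvr2a -0.028, for genotype after hCG Inha -0.054 and Inhba -0.060, for hCG in WT Inha 0.018, Acvr2a -0.040 and Acvr2b -0.16, for hCG in bERKO Acvr1b -0.28, for difference of responses Acvr2a 0.018. Leaving out 1 array gave ranges across 0, for genotype after PMSG Tgfbr3 -0.10 to 0.17, Acvr1b -0.12 to 0.47, Acvr2b -0.20 to 0.21 and Acvr2a -0.028 to 0.085. For hCG in bERKO Acvr1b -0.32 to 0.44, Amh -0.40 to 0.67 and Acvr2a -0.25 to 0.11. For difference of responses Amh -0.23 to 0.84, Acvr2a -0.27 to 0.086 and Acvr2b -0.043 to 0.44. For hCG in WT Inha -0.17 to 0.018, Acvr2a -0.040 to 0.073, Tgfbr3 -0.27 to 0.072, Acvr2b -0.16 to 0.24 and Inhba -0.038 to 0.10. For genotype after hCG Inha -0.054 to 0.13, Inhba -0.060 to 0.083 and Acvr2a -0.24 to 0.12.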
